A study of Mus musculus with 460 samples.

Results

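Cxcl12 and Cxcl14, which encode chemokines, and Cxcr4 and Ackr3, which encode receptors, were described in single cells of a mouse lung tumour stroma. These 4 genes were taken by symbol from a table of 48440 genes, and each symbol matched 1 row. The table held 460 cells, each listed as a sample and labelled as CAFs (cancer-associated fibroblasts) from mice with lung adenocarcinoma. Total RNA was used, with sonication and ligation in the library protocol. There was 1 group and no control group, and the labels used here name no animal, age, culture or batch, so all cells count as 1 sample and no p-value is given.

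The cells were divided by 2 genes that are not among the 4. In 44.1% of the cells the count of Rgs5, a regulator of G protein signalling used as a pericyte marker, exceeded that of Pdgfra, a fibroblast receptor for platelet-derived growth factor. These are called Rgs5-led cells below. The other 55.9% had more Pdgfra than Rgs5 counts, none being equal, and are called Pdgfra-led. In CPM, the count of a gene scaled to 1000000 counts of the cell, the median Rgs5 level was 5064 in Rgs5-led and 261.6 in Pdgfra-led cells, and the median Pdgfra level was 260.3 in Rgs5-led and 1769 in Pdgfra-led cells. The 2 counts lay within 4 times of each other in 30.9% of cells. The cell just inside the split had 25 Rgs5 and 24 Pdgfra counts, with 1 Cxcl12, 0 Cxcl14, 0 Cxcr4 and 9 Ackr3 counts. A cell just outside had 13 Rgs5 and 16 Pdgfra counts, with 2 Cxcl12, 13 Cxcl14, 0 Cxcr4 and 0 Ackr3 counts.

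CXCL12 is a chemokine that stromal cells make in most tissues, where it holds and attracts cells that carry CXCR4, a receptor that signals through inhibitory G proteins. ACKR3 (CXCR7) also binds CXCL12 but recruits arrestins and internalises the ligand, so it is known as a scavenging receptor. CXCL14 is another constitutively made chemokine, whose own receptor remains debated. In tumours, fibroblasts are known as a source of CXCL12, and CXCR4 is known best from leukocytes, vessels and tumour cells.

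The 2 sides differed in all 4 genes. Rgs5-led cells had Cxcr4 at 17.1 times the level of Pdgfra-led cells, while Cxcl12, Cxcl14 and Ackr3 were 4.17-fold, 4.35-fold and 3.80-fold lower there. Rgs5-led cells gave 39.8% of all counts, but 91.9% of those of Cxcr4, 13.7% of those of Cxcl12, 13.2% of those of Cxcl14 and 14.8% of those of Ackr3. The level of a side is its summed CPM, the count of a gene summed over the cells and scaled to 1000000 summed counts, and a gene was called at a 2-fold difference. Of 13975 genes counted in at least 10% of cells, 3.98% were at least 2-fold higher in Rgs5-led cells and 5.26% at least 2-fold lower. Cxcr4 was among the first set and the other 3 genes among the second. The median fold of all these genes was 1.01. Intervals are exact at 95% and cover counting error only, not the variation between animals.

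The depth of the cells and the presence of transcripts of other cell types limit what a single count means. Total counts ran from 25029 to 240496 per cell, with a median of 76944 in Rgs5-led and 96654 in Pdgfra-led cells. Ptprc, Pecam1 and Epcam, defining genes of leukocytes, endothelium and epithelium, were counted in 11.3%, 16.3% and 5.43% of cells. The surfactant gene Sftpc, which alveolar epithelium makes, was counted in 79.3% of Rgs5-led and 82.1% of Pdgfra-led cells. A single count was therefore not read as expression, and shares of cells with at least 3 counts are given as well. Whether that limit separates a cell's own transcripts from those of other cells was not tested. The summed level of Sftpc was 592.1 CPM in Rgs5-led and 410.9 CPM in Pdgfra-led cells. In 27.6% of the cells, in runs of neighbouring columns, Sftpc was low, mostly under 30 CPM, and what sets these runs apart is not given in the sources used here. Fibroblast markers were counted on both sides, with a summed level over 10 genes, Pdgfra among them, of 15246 CPM in Rgs5-led and 20372 CPM in Pdgfra-led cells. The most abundant were Fn1 (5873 CPM in Rgs5-led and 6416 CPM in Pdgfra-led cells), for fibronectin, Pdgfrb (3662 CPM in Rgs5-led and 2144.5 CPM in Pdgfra-led cells), a receptor shared with pericytes, and Col1a2 (1711 CPM in Rgs5-led and 3130.1 CPM in Pdgfra-led cells), a collagen. None of the 10 was at least 2-fold higher in Rgs5-led cells and 4 were at least 2-fold lower, beside 3.98% higher and 5.26% lower among all genes. These were Pdgfra itself, the proteoglycan genes Dcn (229.7 CPM in Rgs5-led and 1328 CPM in Pdgfra-led cells) and Lum (8.32 CPM in Rgs5-led and 118.03 CPM in Pdgfra-led cells), and Dpt (15.3 CPM in Rgs5-led and 71.7 CPM in Pdgfra-led cells), for dermatopontin. The 12 pericyte or mural markers, Rgs5 among them, summed to 10560 CPM in Rgs5-led and 1901 CPM in Pdgfra-led cells. Of these sums Rgs5 itself gave 4620 CPM in Rgs5-led and 367.9 CPM in Pdgfra-led cells. Of the 12, 10 were at least 2-fold higher in Rgs5-led cells, beside 3.98% of all genes. They were led after Rgs5 by the adhesion gene Mcam (1802 CPM in Rgs5-led and 472 CPM in Pdgfra-led cells) and the channel gene Abcc9 (1300.2 CPM in Rgs5-led and 279.1 CPM in Pdgfra-led cells). The split was made on Rgs5 and Pdgfra, so the differences of these 2 genes are not separate results.

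The promoters of Cxcl12 and of its receptor gene Cxcr4 are shown, since this ligand and receptor were high on different sides. Both are the 250 bases before the gene's start in RefSeq, on build GRCm38.p6, read 5′ to 3′ on the gene's own strand, at chr6:117168285-117168534 (plus strand) for Cxcl12 and chr1:128592300-128592549 (minus strand) for Cxcr4. Capitals mark matches, on either strand, to the GC box GGGCGG, the TATA box TATAAA and the core GCGTG of sites bound by hypoxia-inducible factors.
Cxcl12: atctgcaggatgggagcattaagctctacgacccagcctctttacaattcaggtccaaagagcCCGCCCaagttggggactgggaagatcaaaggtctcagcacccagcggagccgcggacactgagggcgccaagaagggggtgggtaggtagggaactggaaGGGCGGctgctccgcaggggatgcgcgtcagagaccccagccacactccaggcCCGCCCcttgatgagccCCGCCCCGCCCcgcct
Cxcr4: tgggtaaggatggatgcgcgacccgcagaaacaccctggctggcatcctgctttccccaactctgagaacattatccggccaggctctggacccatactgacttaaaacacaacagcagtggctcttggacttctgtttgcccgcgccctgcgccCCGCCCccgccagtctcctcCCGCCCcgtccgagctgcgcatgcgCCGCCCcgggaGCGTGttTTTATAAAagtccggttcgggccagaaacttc
Cxcl12 had 5 GC boxes and no TATA box in this window, and its last 2 GC boxes share a base. Cxcr4 had 3 GC boxes, 1 GCGTG core and 2 TATA matches, which are the overlapping readings of 1 stretch on the 2 strands, between 32 and 25 bases before the start. The promoter of Cxcl14 held 2 GCGTG cores, and that of Ackr3 held 1 GC box, 1 TATA box and 1 GCGTG core. Among 32851 mouse promoters of the same length, 32.7% held a GC box, 12.4% a TATA box and 28.2% a GCGTG core. The second hypoxia core ACGTG, present in 16.6% of promoters, and the palindrome bound by EBF factors, present in 0.779%, had no match in any of the 4. A match is a description of letters, not a bound site.

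Cxcl12 (ENSMUSG00000061353.11, chr6:117168535-117181367, plus strand) was spread over most Pdgfra-led cells and concentrated in few Rgs5-led cells. Among Rgs5-led cells its level ran from 0 through a median of 11.7 to 1289 CPM, and among Pdgfra-led cells from 0 through 83.1 to 3862 CPM. The ranges overlapped, and the difference lay in how many cells were high. The summed level was 57.97 CPM (54.4 to 61.7) in Rgs5-led and 241.5 CPM (235.5 to 247.6) in Pdgfra-led cells, a fold of 0.240 (0.224 to 0.257). At least 3 counts were found in 26.1% of Rgs5-led cells (20.2 to 32.7) and 69.3% of Pdgfra-led cells (63.2 to 74.8), and at least 1 count in 60.1% of Rgs5-led and 86.8% of Pdgfra-led cells. The highest 10% of cells of each side held 72.9% of its counts in Rgs5-led and 47.4% in Pdgfra-led cells, and the single highest cell, Pdgfra-led, at 3862 CPM, had no Cxcl14 count.

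Cxcl14 (ENSMUSG00000021508.10, chr13:56288643-56296551, minus strand) was close to universal in Pdgfra-led cells. With 47.1% of its counts in the highest 10% of all cells, it was the least concentrated of the 4 genes over both sides together. Within Rgs5-led cells the highest 10% held 76.4% of its counts, more than for Cxcl12 (72.9%) and Cxcr4 (42.9%). Within Pdgfra-led cells the highest 10% held 33.5%. Its level ran from 0 through a median of 15.5 to 2200 CPM in Rgs5-led cells, and from 0 through 217.6 to 2386 CPM in Pdgfra-led cells. Cells with at least 3 counts made up 27.1% (21.1 to 33.8) of the Rgs5-led and 95.3% (91.99 to 97.6) of the Pdgfra-led side. No count of it was found in 32.5% of Rgs5-led and 1.56% of Pdgfra-led cells. The summed level was 70.8 CPM (66.9 to 74.9) in Rgs5-led and 308.2 CPM (301.5 to 315.1) in Pdgfra-led cells, a fold of 0.230 (0.216 to 0.244). The 2 cells with the most Cxcl14 counts were Rgs5-led cells with few counts of either splitting gene (28 Rgs5 against 11 Pdgfra, and 21 against 20).

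Cxcr4 (ENSMUSG00000045382.6, chr1:128588199-128592293, minus strand) divided the Rgs5-led cells themselves. Its level ran from 0 through a median of 99.3 to 1467 CPM among them, and from 0 through a median of 0 to 934 CPM among Pdgfra-led cells. Of Rgs5-led cells, 24.1% had no Cxcr4 count, 18.2% had 1 to 2, 9.85% had 3 to 9, 17.7% had 10 to 29 and 30.05% had 30 or more. The class of 3 to 9 counts was thus the smallest of the 5. The same classes held 51.8%, 36.2%, 9.73%, 1.95% and 0.389% of Pdgfra-led cells. At least 1 count was found in 75.9% of Rgs5-led (69.4 to 81.6) and 48.2% of Pdgfra-led cells, and at least 3 in 57.6% of Rgs5-led (50.5 to 64.5) and 12.1% of Pdgfra-led cells (8.34 to 16.7). At 10 counts or more there were 97 Rgs5-led cells and 6 Pdgfra-led cells.

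The summed level of Cxcr4 was 270.2 CPM (262.4 to 278.1) in Rgs5-led and 15.8 CPM (14.3 to 17.4) in Pdgfra-led cells, a fold of 17.1 (15.4 to 18.9). Of the 13975 genes compared, 7 had a higher fold. These were Gja4 (fold 44.2), a gap junction protein of vessel walls, Adcy8 (29.02), an adenylyl cyclase, Higd1b (26.1), a pericyte marker, Adra2b (26.02), an adrenergic receptor, Plxdc1 (25.7), a plexin domain protein, Sstr2 (23.04), a somatostatin receptor, and Rgs4 (17.3), a regulator of G protein signalling. They are named because they rank above Cxcr4 and were chosen after their values were seen.

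Leukocytes are known to express Cxcr4. Summed leukocyte markers, but not those of the median cell, were higher in Rgs5-led cells with at least 10 Cxcr4 counts. The 12 leukocyte markers, all with a count, summed to 324.3 CPM in Rgs5-led and 76.5 CPM in Pdgfra-led cells. Per cell they ran from 0 to 6843 CPM with a median of 35.8 in Rgs5-led cells, and from 0 to 2993 CPM with a median of 26.7 in Pdgfra-led cells. In the 97 Rgs5-led cells with at least 10 Cxcr4 counts the markers summed to 566 CPM (median cell 35.5), against 97.7 CPM (median cell 36.2) in those with fewer. Ptprc was counted in 14.4% of the cells with at least 10 Cxcr4 counts and 8.49% of those with fewer. The 11 endothelial markers summed to 175.8 CPM (median cell 86.02) in the 97 cells, against 109.9 CPM (median cell 31.4) in those with fewer. At least 2 of them were counted in 59.8% of the 97 cells and 35.8% of those with fewer. Their part in the Cxcr4 level of these cells was not tested. Without the 43.7% of all cells that had counts of at least 2 leukocyte markers, the Cxcr4 fold was 15.4, and without the 43.04% with at least 2 endothelial markers it was 11.96. The 4 Rgs5-led cells with the most Cxcr4 counts had 0 counts of Ptprc, Pecam1 and Epcam.

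Ackr3 (ENSMUSG00000044337.5, chr1:90203980-90216751, plus strand) was the rarest of the 4 and rested on few cells. Its median was 0 CPM on both sides, and its highest level 706 CPM in Rgs5-led and 2213 CPM in Pdgfra-led cells. At least 3 counts were found in 4.93% of Rgs5-led cells (2.39 to 8.87) and 12.8% of Pdgfra-led cells (9.01 to 17.6). At least 1 count was found in 17.7% of Rgs5-led (12.7 to 23.7) and 30.7% of Pdgfra-led cells (25.2 to 36.8). The interval for Rgs5-led cells includes the share of all cells with Pecam1 (16.3%) and lies above those for Ptprc (11.3%) and Epcam (5.43%). A single Ackr3 count is not read as expression, and the source of such counts was not tested. The summed level was 10.7 CPM (9.23 to 12.4) in Rgs5-led and 40.8 CPM (38.3 to 43.3) in Pdgfra-led cells, a fold of 0.263 (0.224 to 0.308).

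Over all cells, the highest 10% held 93.2% of the Ackr3 counts. The 5 cells with the most had between 68 and 250 counts, and all but the fourth were Pdgfra-led. Within the columns low in Sftpc the direction was the opposite, at 18.1 CPM in 64 Rgs5-led and 4.62 CPM in 63 Pdgfra-led cells. That value turned on 1 Rgs5-led cell with 69 of the 87 counts, a cell at the edge of the split (21 Rgs5 and 20 Pdgfra counts), since without the highest cell of each side the levels were 3.82 CPM in Rgs5-led and 3.001 CPM in Pdgfra-led cells. In the other columns Ackr3 was at 7.82 CPM in Rgs5-led and 50.4 CPM in Pdgfra-led cells.

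**Figure D1:**
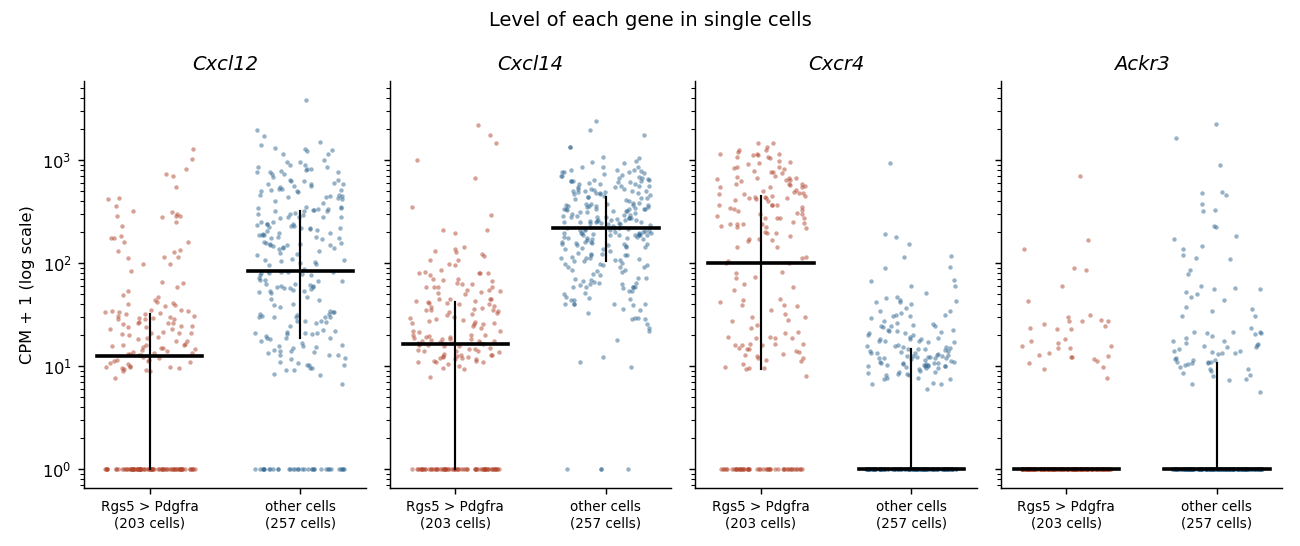
Level of Cxcl12, Cxcl14, Cxcr4 and Ackr3 in single cells, as CPM + 1 on a log scale, 1 point per cell, in the cells with more Rgs5 than Pdgfra counts (left) and all other cells (right). The thick line is the median and the thin line runs between the quartiles; the left and right medians are 99.3 and 0 CPM for Cxcr4, and 15.5 and 217.6 CPM for Cxcl14.

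Levels per kilobase of exon allow different genes to be compared if counts rise with exon length, which was not tested. On this scale Cxcr4 led in Rgs5-led cells at 149.4 CPM per kb, followed by Cxcl14 at 38.8, Cxcl12 at 7.09 and Ackr3 at 3.21. In Pdgfra-led cells Cxcl14 led at 168.7 CPM per kb, followed by Cxcl12 at 29.5, Ackr3 at 12.2 and Cxcr4 at 8.75. The leading gene was thus Cxcr4 on one side and Cxcl14 on the other. The exon lengths joined over all transcripts were 8.176 kb for Cxcl12, 1.827 kb for Cxcl14, 1.808 kb for Cxcr4 and 3.348 kb for Ackr3. With the longest coding transcript in place of the joined exons, Cxcl12 stood at 10.3 CPM per kb in Rgs5-led and 42.9 in Pdgfra-led cells, and its place in the order did not move on either side. Cell by cell on the same scale, Cxcr4 was the leading gene of the 4 in 63.5% of Rgs5-led cells (56.5 to 70.2) and 3.11% of Pdgfra-led cells (1.35 to 6.04). Cxcl14 led in 25.1% of Rgs5-led and 87.2% of Pdgfra-led cells, and Cxcl12 in 7.39% of Rgs5-led and 9.34% of Pdgfra-led cells. These shares depended on the scale. On counts not divided by exon length, Cxcr4 led in 56.7% of Rgs5-led and 1.56% of Pdgfra-led cells. Cxcl14 then led in 17.2% of Rgs5-led and 63.8% of Pdgfra-led cells, and Cxcl12 in 16.3% of Rgs5-led and 31.1% of Pdgfra-led cells.

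Along the balance of the 2 splitting genes the 4 genes did not change at the same place. The cells were put in 5 bins by the share of Rgs5 in the sum of Rgs5 and Pdgfra counts, in steps of 20%, each bin with at least 36 cells. Cxcl14 was lower in each successive bin, at 341.7, 281.1, 211.4, 144.2 and 22.2 CPM. The fourth of these values rested largely on 1 cell (28 Rgs5 and 11 Pdgfra counts), and without the highest cell of each bin Cxcl14 was at 332.1, 261.4, 160.9, 64.2 and 19.3 CPM. Cxcl12 was at 240.3, 211.4, 292.9, 82.3 and 30.3 CPM, with its highest value in the middle bin. Cxcr4 was at 10.03, 15.2, 37.97, 89.6 and 347.6 CPM, so most of its difference lay between the last 2 bins. In the middle bin 1 cell (71 Rgs5 and 77 Pdgfra counts) held most of its counts, and without the highest cell of each bin Cxcr4 was at 8.87, 12.5, 11.2, 74.3 and 339.4 CPM, with no steady rise over the first 3. Ackr3 was at 37.01, 65.2, 26.8, 3.79 and 6.56 CPM. Its high value in the second bin also turned on 1 cell, since without the highest cell of each bin it was at 26.2, 24.7, 9.60, 2.33 and 4.11 CPM.

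**Figure D2:**
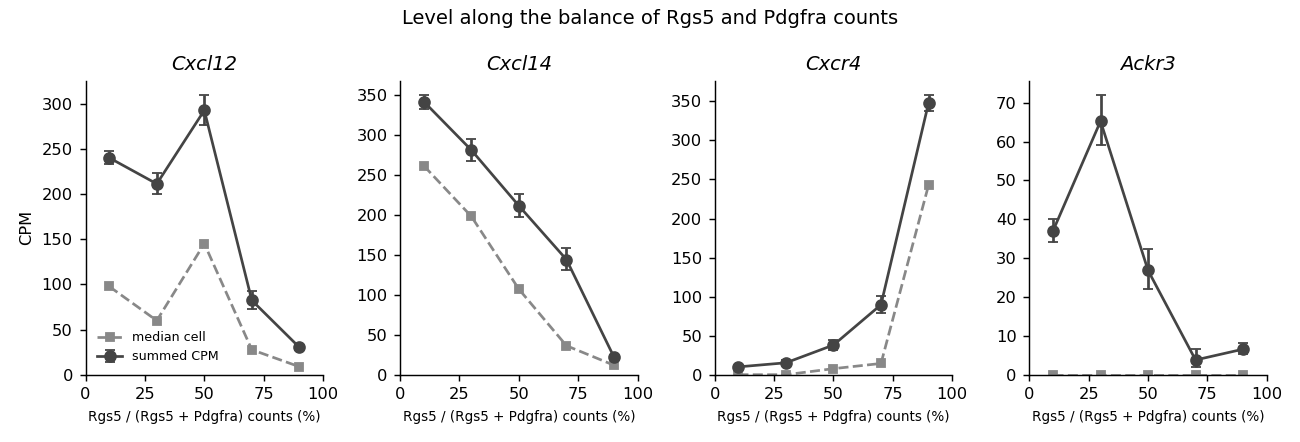
Summed level in CPM (circles, with exact Poisson 95% intervals) and level of the median cell (squares) in 5 bins of the share of Rgs5 counts in the sum of Rgs5 and Pdgfra counts, drawn at the middle of each bin. Cxcl14 is lower in each successive bin, Cxcl12 peaks at 292.9 CPM in the middle bin, and Cxcr4 reaches 347.6 CPM in the last.

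Rgs5-led cells were also divided into 4 classes of near-equal size by their Rgs5 level, and from the lowest class to the highest Cxcr4 was at 89.7, 197.7, 417.9 and 440.4 CPM. Cxcl14 was at 187.6, 39.2, 17.3 and 14.3 CPM in the same classes, and Cxcl12 at 96.2, 46.8, 55.4 and 22.4 CPM. Without the highest cell of each class Cxcl12 was at 83.4, 22.1, 36.3 and 12.8 CPM, and without the highest 2 the first Cxcl14 value was 92.8 CPM. The class with the least Rgs5 had the most ligand and the least Cxcr4 with or without these cells. Among the same cells, those above the median level of Acta2, which encodes smooth muscle actin, had Cxcr4 at 150.96 CPM, against 391.8 CPM in those at or under it.

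Ligand and receptor counts met in the same cell on both sides, mostly at low counts. With at least 1 count, a ligand (Cxcl12 or Cxcl14) and a receptor (Cxcr4 or Ackr3) were found together in 68.97% of Rgs5-led cells (62.1 to 75.3) and 64.6% of Pdgfra-led cells (58.4 to 70.4). A ligand alone was found in 16.3% of Rgs5-led and 35.02% of Pdgfra-led cells, and a receptor alone in 11.8% of Rgs5-led and 0.389% of Pdgfra-led cells. With at least 3 counts, both were found in 21.2% (15.8 to 27.5) of Rgs5-led and 23.3% of Pdgfra-led cells. A ligand alone was then found in 20.7% of Rgs5-led (15.3 to 26.9) and 75.9% of Pdgfra-led cells, and a receptor alone in 39.4% of Rgs5-led cells (32.6 to 46.5) and in 0% of Pdgfra-led cells, for which the exact interval reaches 1.43%. The 0 depends on depth, since with every cell thinned to 56586 counts a receptor alone at 3 counts was found in 0.823% of Pdgfra-led cells.

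**Figure D3:**
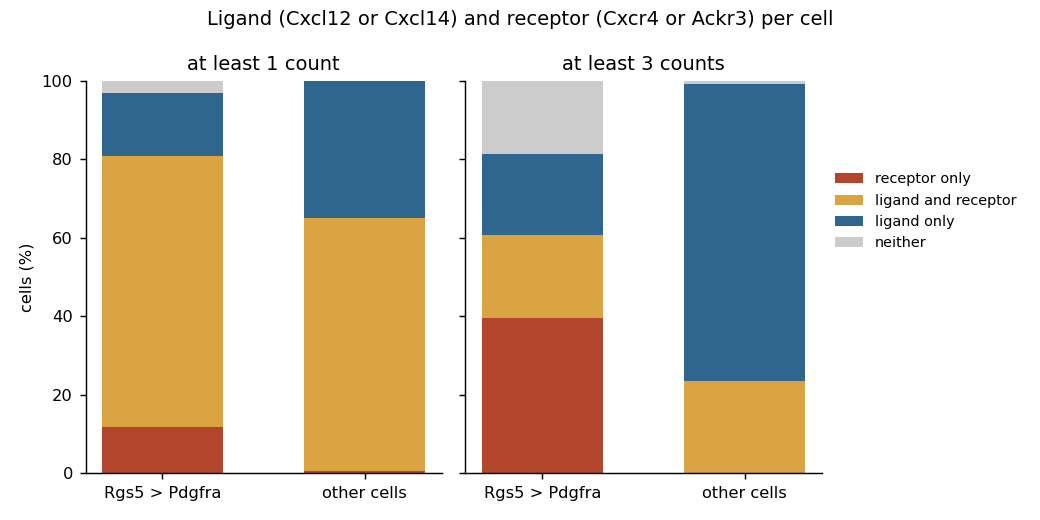
Share of cells (%) with a receptor only, a ligand and a receptor, a ligand only or neither, at a limit of 1 count (left) and of 3 counts (right), for cells with more Rgs5 than Pdgfra counts and for the other cells. At 3 counts a receptor alone is found in 39.4% of Rgs5-led cells and none of the Pdgfra-led cells, and a ligand alone in 20.7% of Rgs5-led and 75.9% of Pdgfra-led cells.

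Taken pair by pair at 3 counts, Cxcl12 and Cxcr4 met in 10.3% of Rgs5-led cells (6.52 to 15.4) and 10.1% of Pdgfra-led cells. Cxcl14 and Cxcr4 met in 11.8% of Rgs5-led cells (7.72 to 17.1) and 11.3% of Pdgfra-led cells. At this limit Cxcr4 itself was found in 57.6% of Rgs5-led and 12.1% of Pdgfra-led cells. The near-equal shares thus cover a smaller part of the Cxcr4 cells among Rgs5-led cells. Cxcl12 and Cxcl14 met in 11.3% of Rgs5-led and 65.4% of Pdgfra-led cells, and Cxcl14 and Ackr3 in 3.94% of Rgs5-led and 11.7% of Pdgfra-led cells. Cxcr4 and Ackr3 met in 4 cells of each side, where only 10 Rgs5-led and 33 Pdgfra-led cells had 3 Ackr3 counts at all. Of those 33, 12.1% had 3 counts of Cxcr4, against 12.05% of the other Pdgfra-led cells. At 1 count Cxcr4 and Ackr3 met in 12.8% of Rgs5-led and 14.01% of Pdgfra-led cells.

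Within Rgs5-led cells the ligands were lower where Cxcr4 was high. The 97 cells with at least 10 Cxcr4 counts had Cxcl12 at 27.3 CPM (23.8 to 31.1), against 86.7 CPM (80.7 to 93.1) in those with fewer. Cxcl14 was at 20.5 CPM (17.5 to 23.8) against 118.1 CPM (110.96 to 125.5), and Ackr3 at 4.51 CPM (3.17 to 6.21) against 16.6 CPM (13.98 to 19.5). The median cells were closer, at 8.53 against 15.3 CPM for Cxcl12 and 12.1 against 19.9 CPM for Cxcl14. Single cells near the split carried much of the sums in the cells with fewer Cxcr4 counts. Without the 2 highest cells there, Cxcl14 was at 65.3 CPM, and without the highest, Ackr3 was at 8.78 CPM. Among the 97 cells, Cxcl12 was at 17.4 CPM and Ackr3 at 3.12 CPM without the highest. Cells with at least 10 Cxcr4 counts also had more Rgs5, at 5773 CPM against 3538 CPM in those with fewer, and less Pdgfra, at 258.7 CPM against 549 CPM in those with fewer.

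Within Pdgfra-led cells the 33 with at least 3 Ackr3 counts had Cxcl14 at 567 CPM (542 to 593), against 267.6 CPM (260.9 to 274.5) in those with fewer. The median cell had 26.1 CPM of Cxcl12 among the 33, against 102.2 CPM in those with fewer, and at least 3 counts of it were found in 54.5% of the 33 against 71.4%. The summed Cxcl12 level ran the other way, at 287.4 CPM against 234.3 CPM, but turned on 1 cell, without which the 33 were at 188.1 CPM. The 5 cells with the most Ackr3 counts had at least 73 Cxcl14 counts each, and 0, 2, 61, 18 and 2 Cxcl12 counts. Endothelial markers were also higher in the 33 cells, 11 genes summing to 393.9 CPM with a median cell of 50.3 and a highest cell of 5082, against 51.2 CPM with a median cell of 26.1. Their part in the Ackr3 level was not tested.

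**Figure D4:**
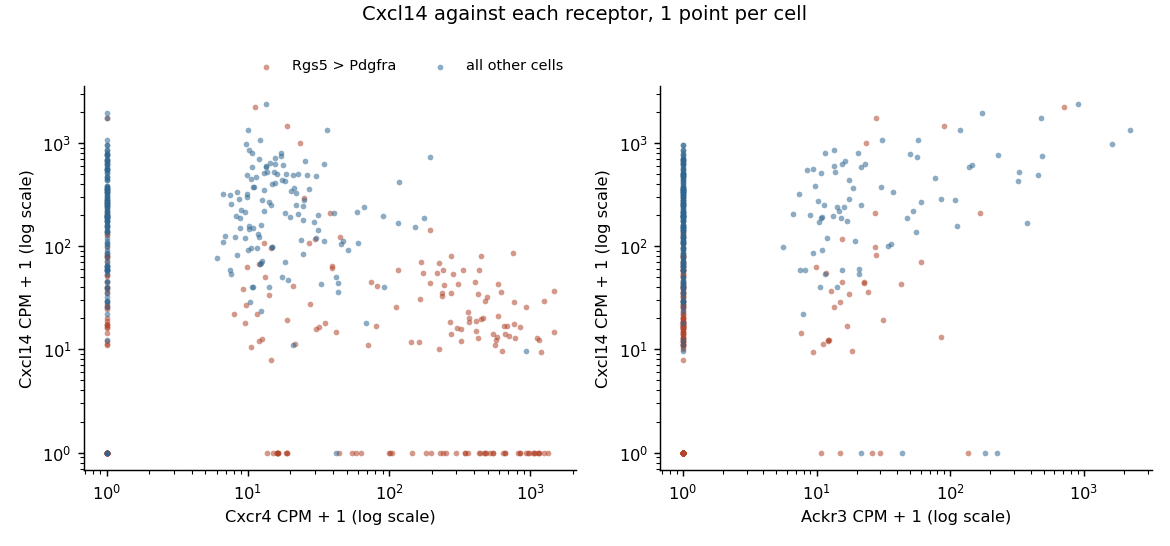
Cxcl14 against Cxcr4 (left) and against Ackr3 (right), each as CPM + 1 on log scales, 1 point per cell, for cells with more Rgs5 than Pdgfra counts and for all other cells. At 3 counts Cxcr4 and Cxcl14 meet in 11.8% of Rgs5-led and 11.3% of Pdgfra-led cells. Cxcr4 itself is found in 57.6% of Rgs5-led and 12.1% of Pdgfra-led cells at that limit. The cells with the most Ackr3 also have much Cxcl14.

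Pdgfra-led cells were also split at their median level of Dcn, which encodes the matrix proteoglycan decorin. Cells above the median Dcn level had Cxcl12 at 316.6 CPM (306.5 to 326.8), Cxcl14 at 389.2 CPM (378.03 to 400.5) and Ackr3 at 61.2 CPM (56.8 to 65.8). Cells at or under it had Cxcl12 at 176.4 CPM (169.5 to 183.6), Cxcl14 at 238.01 CPM (229.9 to 246.3) and Ackr3 at 23.1 CPM (20.6 to 25.8). At least 3 Cxcl12 counts were found in 70.3% of cells above the median and 68.2% of the others. For Cxcl14 these shares were 94.5% and 96.1%. The median cell had Cxcl12 at 157.1 CPM above and 55.7 CPM at or under the median. For Cxcl14 it had 321.4 CPM above and 146.9 CPM at or under the median. Much of the Ackr3 level above the median came from 2 cells. Without the highest cell of each class Ackr3 was at 40.6 CPM above and 17.9 CPM at or under the median. Without the highest 2 of each class it was at 24.98 CPM above and 14.8 CPM at or under it, a smaller difference in the same direction. Cxcr4 was at 10.7 CPM above and 20.2 CPM at or under the median, and without the highest cell of each class at 9.06 CPM above and 12.6 CPM at or under it.

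Across all 460 cells, the Spearman correlation of Cxcl12 with Cxcl14 was 0.408, on counts scaled to 10000 per cell. That of Cxcl14 with Cxcr4 was -0.427 and that of Cxcl12 with Cxcr4 was -0.273. The cells share a table and differ in depth. Within the sides, Cxcl12 with Cxcl14 stood at 0.148 in Rgs5-led and 0.148 in Pdgfra-led cells, and Cxcl14 with Cxcr4 at -0.251 in Rgs5-led and -0.0256 in Pdgfra-led cells. Cxcl12 with Cxcr4 stood at -0.199 in Rgs5-led and 0.0219 in Pdgfra-led cells. Cxcl14 with Ackr3 was 0.245 over all cells and kept 0.225 within Rgs5-led and 0.195 within Pdgfra-led cells. The correlations of Ackr3 with Cxcl12 (0.0341) and with Cxcr4 (-0.0846) were near 0.

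The genes most like each of the 4 were ranked by the same correlation over 460 cells, among 8999 genes counted in at least 25% of cells. Nearest to Cxcl12 were Mfap5 (0.58), a microfibril protein, Cp (0.58), the copper carrier ceruloplasmin, Igfbp4 (0.58), which binds insulin-like growth factors, Serpina3n (0.57), a protease inhibitor, and Apoe (0.55), a lipid carrier. Mfap5 kept 0.44 in Rgs5-led and 0.55 in Pdgfra-led cells, so this likeness was not only one of side. Nearest to Cxcl14 were Cdh11 (0.66), a cadherin of mesenchymal cells, Pdgfra (0.62), Igf1 (0.61), a growth factor, Igfbp4 (0.59) and Fgfr2 (0.59), a fibroblast growth factor receptor. Cxcl14 itself ranked 53rd for Cxcl12.

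Nearest to Cxcr4 were Higd1b (0.57), Clstn2 (0.53), a calsyntenin, Rgs5 (0.53), Pdzd2 (0.51), a PDZ domain protein, and Emid1 (0.50), an extracellular matrix protein. Higd1b stood at 0.64 within Rgs5-led and 0.10 within Pdgfra-led cells. The nearest to Ackr3 were weak, with Anpep (0.27), an aminopeptidase, Srgn (0.26), the proteoglycan serglycin, Fzd2 (0.26), a Wnt receptor, Cdon (0.26), a Hedgehog co-receptor, and Thbd (0.25), thrombomodulin. Only 2 of these 5 stayed among the nearest 5 when cells were thinned to 1 depth, against 5 of 5 for each of the other genes. Cxcl14 ranked 8th for Ackr3.

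Most of the other chemokine system genes differed by less than 2-fold between the sides. In 7 lists, of CXC and CC ligands, receptors, partners, carriers, signalling genes and transcription factors, holding 15, 21, 22, 6, 11, 15 and 11 measured genes, 48 were counted in at least 10% of cells. Of these 48, 9 were at least 2-fold higher in Rgs5-led cells and 4 at least 2-fold lower, beside the 3.98% higher and 5.26% lower among all genes. With a limit of 3-fold, 3 were higher and 1 lower, but the share of all genes past 3-fold was not computed, so these 2 counts have no background.

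Among other CXC, CX3C and XC ligands, 5 of 15 were counted widely. Cxcl1, a neutrophil attractant, was at 130.9 CPM in Rgs5-led and 131.2 CPM in Pdgfra-led cells. Cxcl16, a membrane-bound ligand of CXCR6, was at 56.1 CPM in Rgs5-led and 124.7 CPM in Pdgfra-led cells, a fold of 0.450. Cxcl15, a lung epithelial chemokine in mice, was at 129.98 CPM in Rgs5-led and 59.99 CPM in Pdgfra-led cells, a fold of 2.17. Of 21 CC ligands, Ccl6, a chemokine of mouse myeloid cells, was at 95.2 CPM in Rgs5-led and 37.5 CPM in Pdgfra-led cells, a fold of 2.54, and Ccl25, an intestinal and thymic chemokine, at 20.3 CPM in Rgs5-led and 19.6 CPM in Pdgfra-led cells. Ccl2, a monocyte attractant, was under the limit of 10% of cells, at 1.12 CPM in Rgs5-led and 6.98 CPM in Pdgfra-led cells.

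Epithelial markers, 10 genes led by Sftpc, Sftpb and Sftpa1, summed to 1461 CPM in Rgs5-led and 877 CPM in Pdgfra-led cells, with single Rgs5-led cells from 0 to 21904 CPM and single Pdgfra-led cells from 0 to 24081 CPM. Their part in the Cxcl15 level, like that of the leukocyte transcripts in the Ccl6 level, was not tested. Among leukocyte markers Lcp1, Laptm5 and Cd68 were the most abundant. All 6 that were counted in 10% of cells were at least 2-fold higher in Rgs5-led cells, beside 3.98% of all genes. These are summed levels, and the median cells were closer, at 35.8 CPM in Rgs5-led and 26.7 CPM in Pdgfra-led cells over the 12 markers. Endothelial markers, led by Vwf, Esam and Kdr, summed to 141.8 CPM in Rgs5-led and 97.6 CPM in Pdgfra-led cells. Of the 8 counted in at least 10% of cells, 2 were at least 2-fold higher in Rgs5-led cells, beside 3.98% of all genes. These were Esam (38.7 CPM in Rgs5-led and 4.44 CPM in Pdgfra-led cells) and Kdr (26.1 CPM in Rgs5-led and 12.2 CPM in Pdgfra-led cells). Only 1 was at least 2-fold lower, beside 5.26% of all genes. It was Erg, at 4.01 CPM in Rgs5-led and 14.1 CPM in Pdgfra-led cells.

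Of 22 other chemokine receptors, only Ccrl2 and Gpr182 were counted in 10% of cells. Ccrl2, an atypical receptor that presents chemerin, was at 67.7 CPM in Rgs5-led and 37.03 CPM in Pdgfra-led cells, a fold of 1.83. Gpr182, an atypical receptor that takes up CXCL12 among other chemokines, was at 9.32 CPM in Rgs5-led and 4.60 CPM in Pdgfra-led cells, a fold of 2.03, in 17.2% of Rgs5-led and 8.56% of Pdgfra-led cells. Cxcr1, a receptor of neutrophils, was at 10.7 CPM in Rgs5-led and 0.585 CPM in Pdgfra-led cells, counted in 4.93% of Rgs5-led and 3.11% of Pdgfra-led cells.

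Other partners of the same receptors differed in both directions. Adm encodes adrenomedullin, which ACKR3 also binds, and was at 3.48 CPM in Rgs5-led and 20.3 CPM in Pdgfra-led cells, a fold of 0.172 that was the lowest of the 48. Cd74, the invariant chain that is also a receptor partner for MIF, was at 108.6 CPM in Rgs5-led and 43.5 CPM in Pdgfra-led cells, a fold of 2.49. It was counted in 58.1% of Rgs5-led and 61.5% of Pdgfra-led cells, and the part of leukocyte transcripts in its level was not tested. Hmgb1, whose protein can pair with CXCL12, was at 188.9 CPM in Rgs5-led and 217.5 CPM in Pdgfra-led cells.

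Among 11 proteases and carriers of CXCL12, the most abundant were even. Mmp14, a membrane protease, was at 820 CPM in Rgs5-led and 705 CPM in Pdgfra-led cells, Sdc3, a syndecan, at 854 CPM in Rgs5-led and 626 CPM in Pdgfra-led cells, and Hspg2, the heparan sulphate proteoglycan perlecan, at 671 CPM in Rgs5-led and 628 CPM in Pdgfra-led cells. Cpm, a carboxypeptidase that trims CXCL12, was higher, at 334.97 CPM in Rgs5-led and 92.9 CPM in Pdgfra-led cells, a fold of 3.60 (3.44 to 3.78). Dpp4, a peptidase that inactivates CXCL12, was at 14.3 CPM in Rgs5-led and 3.66 CPM in Pdgfra-led cells, a fold of 3.91, though in only 9.85% of Rgs5-led and 11.3% of Pdgfra-led cells. Mmp2 and Mmp9, gelatinases, were lower, with folds of 0.393 and 0.404.

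Genes of signal transduction and desensitisation at CXCR4 or ACKR3 were the most even list, with a median fold of 1.02 over 15 genes. Gnai2, an inhibitory G protein subunit, was at 674 CPM in Rgs5-led and 631 CPM in Pdgfra-led cells. Stat3, a transcription factor, was at 239.8 CPM in Rgs5-led and 288.02 CPM in Pdgfra-led cells, and Rgs16, a brake on G protein signals, at 218.3 CPM in Rgs5-led and 249.9 CPM in Pdgfra-led cells. Gnao1, another G protein subunit, was the 1 gene past the limit, at 27.8 CPM in Rgs5-led and 12.8 CPM in Pdgfra-led cells, a fold of 2.17.

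Of the transcription factors linked to the ligand or the receptor, Ebf1 stood apart. Ebf1, an early B cell factor also found in mesenchymal cells, was at 548 CPM in Rgs5-led and 66.2 CPM in Pdgfra-led cells, a fold of 8.27 (7.86 to 8.72), and was counted in 97.04% of Rgs5-led and 76.3% of Pdgfra-led cells. Epas1, which encodes HIF2A, was at 891 CPM in Rgs5-led and 347.2 CPM in Pdgfra-led cells, a fold of 2.57. Prrx1, a mesenchymal factor, was at 284.7 CPM in Rgs5-led and 426.6 CPM in Pdgfra-led cells, a fold of 0.667.

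**Figure D5:**
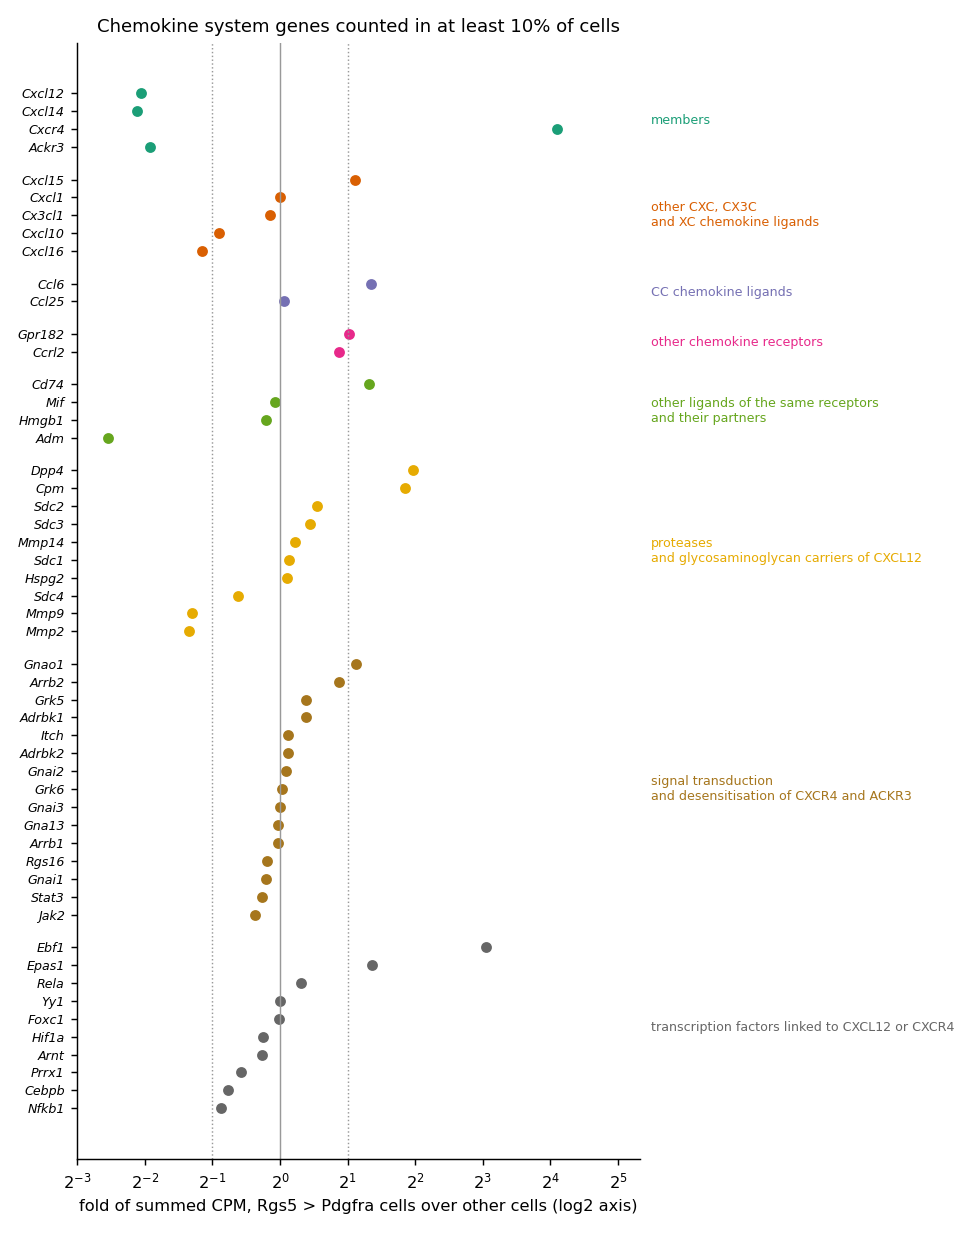
Fold of summed CPM, cells with more Rgs5 than Pdgfra counts over the other cells, on a log2 axis, for the 4 genes and the 48 other genes of the chemokine system counted in at least 10% of cells, coloured by list. Dotted lines mark 2-fold; Cxcr4 lies farthest right at 17.1, followed by Ebf1 at 8.27, and Adm lies farthest left at 0.172.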

How the data were processed

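Each of the 460 samples is 1 mouse cell, and the labels give 1 group. Values are raw counts of molecular barcodes for 48440 genes, as deposited by the authors. STAR, HTSeq and mm10 are named in the submitters' processing notes, without versions; the step from reads to barcode counts, its use of strand and any cell filter are not given in the sources used here, so reads shared with overlapping or antisense genes cannot be told apart. All cells were kept and no doublet caller was run.

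Where a symbol had several rows, the row with the highest sum was used (113 symbols). CPM and folds use counts summed over cells. Shares have Clopper-Pearson and sums Poisson intervals, both exact, at 95%. Exon lengths and gene positions came from GENCODE vM21 (48058 identifiers matched) and promoters from RefSeq (4 of 4 genes matched). For comparisons across depths, cells were thinned to 56586 counts, the 10th percentile, leaving out 32 Rgs5-led and 14 Pdgfra-led cells.

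Named genes were, per chemokine list, the 3 most abundant and all past 2-fold, the 5 nearest to each of the 4 genes, and the 3 most abundant of each marker list. The 4 genes, the lists and the rules were chosen with earlier results of these data known. Columns were called low in Sftpc where most of the 20 nearest had under 30 CPM. The fold and likeness steps were tested on simulated data. Calculations ran in Python 3.11.15 with pandas 2.3.3, numpy 2.4.6 and scipy 1.17.1, and plots in matplotlib 3.10.9. The genotype of the mice is not reported here.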

Additional observations from a re-analysis of the deposited data

How the results depend on the processing

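No paired analysis was possible because the labels give 1 group and no replicate number shared between groups. Of 48 recomputed folds, 47 kept their direction and their side of 2-fold, and the exception was Ackr3 in columns low in Sftpc (3.92). The folds ran from 0.127 to 0.443 for Cxcl12, 0.0651 to 0.315 for Cxcl14, 11.96 to 34.5 for Cxcr4 and 0.153 to 3.92 for Ackr3. Moves of over 1.5 times came from a split with a margin of 4 times (Cxcl12 0.127, Cxcl14 0.0651, Cxcr4 34.5), a split on counts per kb (Cxcl12 0.443), columns low in Sftpc (Cxcr4 26.4) and, for Ackr3, the other columns (0.155), cells without 2 leukocyte markers (0.441) and cells without high Hand2 and Hoxa10 (0.153). The split on counts per kb moves cells between the sides, and the subsets by Sftpc, markers, Hand2 and Hoxa10 leave cells out; the cause of each move was not tested.

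Shares of cells with a count moved with thinning to Cxcl12 49.7% and Cxcl14 56.1% of Rgs5-led cells, and Cxcl12 80.2%, Cxcr4 33.7% and Ackr3 22.2% of Pdgfra-led cells. The margin of 4 times gave Cxcr4 82.7% of Rgs5-led cells. Columns low in Sftpc gave Cxcl12 45.3% and Ackr3 7.81% of Rgs5-led, and Cxcl12 77.8%, Cxcl14 100%, Cxcr4 41.3% and Ackr3 17.5% of Pdgfra-led cells. Among Rgs5-led cells Cxcl12 was counted in 66.9% in the other columns and 51.8% without leukocyte markers. At 3 counts the shares for Cxcl12, Cxcl14, Cxcr4 and Ackr3 were 26.1%, 27.1%, 57.6% and 4.93% of Rgs5-led and 69.3%, 95.3%, 12.1% and 12.8% of Pdgfra-led cells.

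Ligand and receptor together moved with thinning to 59.1% of Rgs5-led and 48.1% of Pdgfra-led cells, receptor alone to 19.9% of Rgs5-led and 0% of Pdgfra-led cells, and ligand alone to 51.9% of Pdgfra-led cells. Ligand alone was found in 10.7% of Rgs5-led cells with the margin of 4 times and 22.4% without endothelial markers. Columns low in Sftpc gave receptor alone in 17.2% of Rgs5-led and 0% of Pdgfra-led cells, and both in 53.97% and ligand alone in 46.03% of Pdgfra-led cells. Receptor alone was found in 0% of Pdgfra-led cells without leukocyte markers and likewise without endothelial markers. At 3 counts both were found in 21.2% of Rgs5-led and 23.3% of Pdgfra-led cells, receptor alone in 39.4% of Rgs5-led and 0% of Pdgfra-led cells, and ligand alone in 75.9% of Pdgfra-led cells.

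Cxcl14 with Ackr3 moved to 0.372 by Pearson's measure and to 0.438 in cells with both, and Cxcr4 with Ackr3 to -0.239 in columns low in Sftpc and -0.194 in cells with both. Within Rgs5-led cells alone, Cxcl12 with Cxcl14 was 0.148 and Cxcl14 with Cxcr4 -0.251. Within Pdgfra-led cells alone, Cxcl12 with Cxcl14 was 0.148, Cxcl12 with Cxcr4 0.0219, Cxcl12 with Ackr3 -0.0821 and Cxcl14 with Cxcr4 -0.0256. A 3-fold limit left 3 chemokine system genes higher and 1 lower, without a share over all genes at that limit. The subsets by side, the cells with both genes and the removal of a gene's highest cells, over all cells or within a class, were chosen after seeing the data.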

Other observations

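Only 8 Rgs5-led cells had at least 10 counts of Mki67, a gene of dividing cells, with Cxcr4 at 331.2 CPM (291.4 to 375.05), against 267.3 CPM in the others, and at 242.5 CPM without the highest of the 8. Among Pdgfra-led cells, the 20 with that many Mki67 counts had Cxcl14 at 178.5 CPM (162.6 to 195.5), against 322.8 CPM (315.5 to 330.2) in those with fewer, and Cxcl12 at 221.6 CPM against 243.8 CPM. Cxcr4 was at 57.05 CPM in these 20 cells, against 11.2 CPM, but 1 cell at the edge of the split held most of its counts, and without it the level was 16.5 CPM. The genes that ran most against Cxcl14 over 460 cells were Tns1 (-0.71), a focal adhesion protein, and Notch3 (-0.71), a receptor of mural cells, and the one most against Cxcl12 was Mcam (-0.61), an adhesion molecule. These were named after their values were seen.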
